A study of Mus musculus with 6 samples.

Results

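Glucose breakdown and the response to low oxygen were followed through 36 genes, taken by symbol from the 24421 genes of the deposited table. The 36 comprise 6 genes of oxygen sensing, 16 enzymes of glycolysis, 2 lactate dehydrogenase genes, 4 regulators of glycolytic flux and 8 other genes known to respond to hypoxia. Poly(A) RNA sequencing gave their mRNA levels in dendritic cells that flow cytometry had isolated from the bone marrow of C57BL/6 mice. In 3 samples the mice were wild type (WT). In the other 3 the mice carried TCL cells, a murine model of chronic lymphocytic leukaemia (CLL) passed on by adoptive transfer, in which leukaemic B cells are given to recipient mice. Not given in the sources used here are the age of the mice, the dose and duration of the transfer, the markers of the sort and the number of mice behind a sample. The table names its libraries by running numbers, so they are called WT libraries 3, 7 and 9 and TCL libraries 4, 8 and 10.

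Hypoxia-inducible factor (HIF) is a transcription factor made of an oxygen-regulated alpha subunit, such as HIF1A, and the constant partner ARNT. With oxygen present, the EGLN prolyl hydroxylases mark the alpha subunit, VHL then recruits a ubiquitin ligase to it, and it is degraded. Without oxygen, or under inflammatory signals in myeloid cells, the subunit accumulates and raises transcription of glucose transporters, glycolytic enzymes and pyruvate dehydrogenase kinases. These kinases inactivate pyruvate dehydrogenase and so keep pyruvate out of the mitochondria. Activated dendritic cells are known for a rapid turn to glycolysis.

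Recovered read totals ran from 17158819 to 25674314 per library, and 13010 genes had enough reads to be tested. Levels are CPM (reads scaled to a common library total), and fold changes are TCL against WT on the log2 scale. Of the markers that define dendritic cells, Itgax (CD11c) lay at 383 to 528 CPM in WT and 375 to 655 CPM in TCL, and Zbtb46 at 2.70 to 11.8 and 3.92 to 15.5 CPM. RNA of other marrow cells was present in every library. The summed level of 7 dendritic cell markers was 37190 to 48420 CPM in WT and 12590 to 29210 CPM in TCL, and 1 of the 7, Flt3, fell. Nearly all of this sum came from Cd74 and H2-Ab1, of the MHC class II pathway that B cells and macrophages also use, at 29727 and 13484 CPM on average in WT and 16163 and 5825 CPM in TCL. Itgax, Zbtb46, Itgae and Siglech overlapped between the groups and did not pass. The sum of 7 neutrophil markers was 18790 to 43180 and 8533 to 21040 CPM, and that of 8 macrophage markers 10520 to 12250 and 3936 to 5488 CPM, with 0 and 3 of them falling. For 6 B cell markers the sums were 284 to 675 and 190 to 267 CPM, with 3 falling. Sums of 6 stromal markers were 86.7 to 313 and 6.44 to 12.9 CPM, highest in WT library 7, with 4 falling. Of these 6 lists only the 5 erythroid markers summed higher in TCL, at 39.4 to 52.0 CPM in WT and 71.0 to 296 CPM in TCL, highest in library 8, with 3 tested, 0 called and Hba-a1 at 0 in every library. These cell types carry glycolytic genes too, and their part in the results was not tested. In such bulk libraries fewer cells of a type and less RNA per cell cannot be told apart.

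All 36 genes were in the table and all 36 passed the filter on low counts. TCL samples held more RNA of 3 of them, the oxygen-regulated subunit gene Hif1a and the pyruvate dehydrogenase kinase genes Pdk1 and Pdk3. None fell and 33 did not pass (edgeR quasi-likelihood test, Benjamini-Hochberg adjusted p under 0.05). The share called higher was 8.33%, where 2.03% of all tested genes were called higher, 2.61% lower and 4.64% in either direction. At an unadjusted p under 0.05, 11 genes (30.6%) were higher and 2 lower, against 11.2% and 11.2% of all tested genes and 22.4% in either direction. The log2 fold change was positive for 26 of the 36 and negative for 10, where 50% of tested genes were positive. Its median was 0.26 over the 36 genes and 0.00 over all tested genes. Individual libraries of the 2 groups did not overlap for 13 of the 36 genes, 11 higher and 2 lower in TCL. Such separation was met in 28.2% of all tested genes, 14.1% higher and 14.2% lower.

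By adjusted p, 8 of the 36 genes passed 0.05 in the authors' deposited table, against 8.11% of the genes with a read. Those that were higher in the authors' deposited table were 6, Hif1a, Pdk1, Pdk3, Hk1, Gapdh and Ankrd37, where 3.9% of genes were. Vhl and Aldoc were lower in the authors' deposited table, where 4.21% were. DESeq2 run on the recovered reads of the tested genes called 8 of the 36 higher and 2 lower, against 11.2% of tested genes in either direction, 5.5% higher and 5.67% lower. The 8 were those 6 with Aldoa and Tpi1, and the 2 were again Vhl and Aldoc. Of all edgeR calls 43.7% were higher with TMM scaling, and 54.3% with scaling to library size alone.

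**Figure D1:**
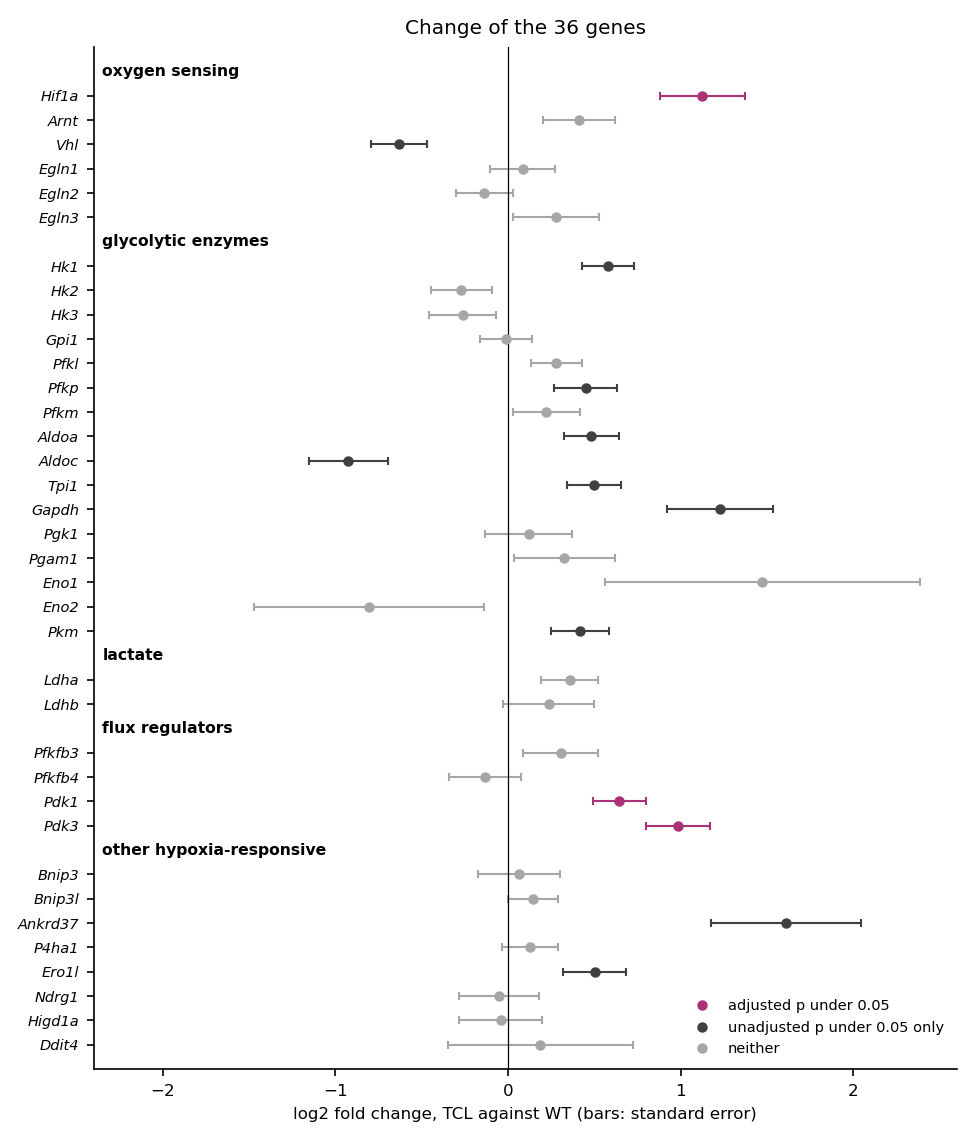
The log2 fold change of TCL against WT (horizontal axis) is plotted for each of the 36 genes, grouped by role, with bars of 1 standard error from edgeR and colours for genes past an adjusted p of 0.05, past an unadjusted p of 0.05 only, or neither. Hif1a, Pdk1 and Pdk3 are past the adjusted threshold, and 26 of the 36 points lie to the right of 0.

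HIF binds the letters ACGTG or GCGTG, and 300 bases around gene starts (250 before and 50 after, RefSeq, GRCm38.p6) were searched for both on both strands. A promoter sequence was found for 33 of the 36 genes, with 47 starts in all, and Bnip3l, Ero1l and Ndrg1 were not matched. Either pentamer occurred in 38 of the 47 promoters (80.9%), in 60.8% of the 12578 promoters of tested genes and in 43.8% of all 32851 promoters. ACGTG occurred in 53.2% of the 47, against 25.2% and 19.6%, and GCGTG in 59.6%, against 49.4% and 32.4%. Both strands of CACGTG, a motif shared with other factors, hold ACGTG, and CACGTG occurred in 12.8%, against 9.81% and 7.15%. Counted by gene, with a match at any start, 29 of 33 genes (87.9%) and 66.5% of tested genes had a match. A match is a description of the letters and not a binding site. The promoters of the 3 called genes are shown, with that of Ankrd37, which had the highest log2 fold change of the 36, and that of Vhl, which had no match, and capitals mark the matched letters. They lie at chr12:73907617-73907916 on the plus strand for Hif1a, chr2:71872974-71873273 on the plus strand for Pdk1 (the first of its starts), chrX:93832101-93832400 on the minus strand for Pdk3, chr8:45999801-46000100 on the minus strand for Ankrd37 and chr6:113623744-113624043 on the plus strand for Vhl.
Hif1a: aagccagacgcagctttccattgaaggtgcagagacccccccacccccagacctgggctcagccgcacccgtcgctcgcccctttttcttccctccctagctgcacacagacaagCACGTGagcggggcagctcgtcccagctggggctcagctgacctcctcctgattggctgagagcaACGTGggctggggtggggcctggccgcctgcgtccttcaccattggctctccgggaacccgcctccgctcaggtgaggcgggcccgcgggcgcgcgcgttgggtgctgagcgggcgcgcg
Pdk1: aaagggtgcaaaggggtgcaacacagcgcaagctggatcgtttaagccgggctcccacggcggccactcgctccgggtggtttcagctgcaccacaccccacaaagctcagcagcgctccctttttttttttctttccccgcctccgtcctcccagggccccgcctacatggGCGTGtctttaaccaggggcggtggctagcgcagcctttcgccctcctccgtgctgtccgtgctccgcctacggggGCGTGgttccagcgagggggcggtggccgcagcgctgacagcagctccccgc
Pdk3: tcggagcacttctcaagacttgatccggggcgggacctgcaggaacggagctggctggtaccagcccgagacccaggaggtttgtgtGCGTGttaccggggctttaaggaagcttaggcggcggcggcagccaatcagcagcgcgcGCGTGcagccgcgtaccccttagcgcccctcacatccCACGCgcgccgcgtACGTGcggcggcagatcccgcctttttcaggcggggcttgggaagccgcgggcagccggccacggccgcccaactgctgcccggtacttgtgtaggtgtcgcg
Ankrd37: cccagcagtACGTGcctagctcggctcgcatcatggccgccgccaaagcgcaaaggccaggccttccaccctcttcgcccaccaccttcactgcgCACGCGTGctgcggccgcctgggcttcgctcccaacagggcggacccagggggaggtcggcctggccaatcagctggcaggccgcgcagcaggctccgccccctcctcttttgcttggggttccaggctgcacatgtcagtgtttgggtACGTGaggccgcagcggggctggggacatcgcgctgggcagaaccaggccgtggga
Vhl: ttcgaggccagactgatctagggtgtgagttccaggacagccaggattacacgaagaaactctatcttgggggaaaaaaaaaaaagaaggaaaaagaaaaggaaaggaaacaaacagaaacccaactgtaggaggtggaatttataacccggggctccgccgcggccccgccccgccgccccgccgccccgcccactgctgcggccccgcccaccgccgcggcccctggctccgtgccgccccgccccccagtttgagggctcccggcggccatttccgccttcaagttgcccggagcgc
The Hif1a promoter held 3 matches, 2 of them the strands of a single CACGTG, and the first Pdk1 promoter held 2, both GCGTG. Pdk3 and Ankrd37 held 4 each, and in Ankrd37 a pair of them overlaps in CACGCGTG. The Vhl window held 0, which says only that these letters are absent from it. Gpi1, Tpi1 and Eno2 also held 0, with log2 fold changes of -0.01, 0.50 and -0.81, as did start 2 of Pdk1. Aldoc, lower in every TCL library, held 3 matches at start 1 and 1 at start 2. Whether matches go with the direction of change was not tested.

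Among the genes of oxygen sensing, Hif1a rose and the other 5 did not pass. Hif1a, at positions 73901375 to 73947530 of chromosome 12 (GRCm38, GENCODE), had 61.0, 47.1 and 64.3 CPM in WT libraries 3, 7 and 9. It had 136, 80.9 and 159 CPM in TCL libraries 4, 8 and 10. Every TCL library lay above every WT library, and TCL library 8 lay well below the other TCL libraries. The means were 57.5 ± 9.15 and 125 ± 40.2 CPM (SD, n = 3 each), a log2 fold change of 1.13 (SE 0.24, edgeR adjusted p = 0.0347). Leaving out WT libraries 3, 7 and 9 in turn gave adjusted p-values of 0.105, 0.108 and 0.0652, and leaving out TCL libraries 4 and 10 gave 0.108 and 0.0788, so the call was lost each time. Leaving out TCL library 8 gave 0.00248. Of the 50-base words in Hif1a exons, 6.26% also occur in other annotated genes, mainly the antisense gene Gm15283. Because the sources used here do not give the strand setting of the counting, reads from the antisense gene cannot be told apart.

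Vhl, whose product directs HIF to destruction, had its libraries in the opposite order. It had 71.5, 81.2 and 67.9 CPM in the WT libraries and 51.0, 39.3 and 52.1 CPM in the TCL libraries, with no overlap. The means were 73.5 ± 6.92 and 47.5 ± 7.09 CPM (SD, n = 3 each), and the log2 fold change of -0.63 (SE 0.16) missed the threshold (edgeR adjusted p = 0.0602). Vhl lies at positions 113623959 to 113631633 of chromosome 6 and shares no 50-base word with other genes. Arnt, the constant partner of HIF1A, had 44.9, 36.35 and 50.1 CPM in WT and 55.0, 45.1 and 74.7 CPM in TCL, which overlap (log2 fold change 0.41, SE 0.21, edgeR adjusted p = 0.283). TCL library 8 was the lowest TCL library for Hif1a, Arnt and Vhl alike, and the highest for Egln1, Egln2 and Egln3. The EGLN hydroxylase genes did not pass either, with log2 fold changes of 0.08 for Egln1 (SE 0.19), -0.14 for Egln2 (SE 0.17) and 0.28 for Egln3 (SE 0.25), and their groups overlapped. Per kilobase, Egln2 made up 58.0 ± 6.12% of the EGLN RNA in WT and 53.4 ± 1.31% in TCL (two-sided exact permutation p = 0.3, n = 3 each).

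**Figure D2:**
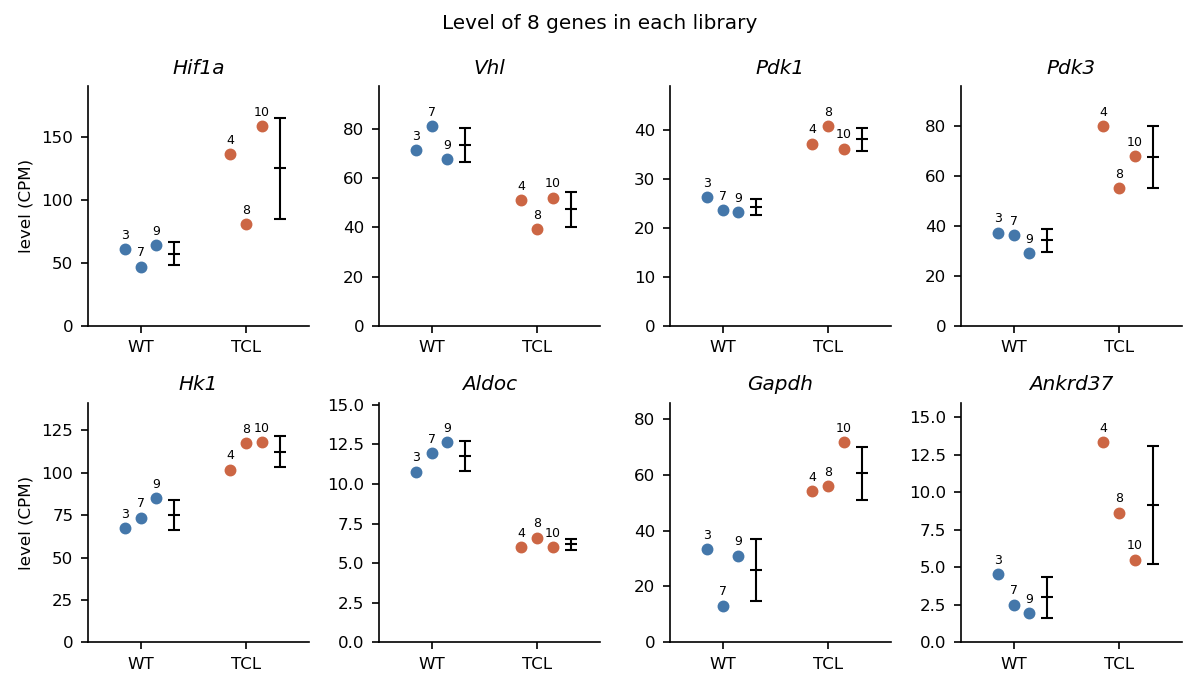
The level in CPM (vertical axes, from 0) of 8 genes is plotted for each library, labelled by its number, in the WT and TCL groups, with the mean and SD of each group (n = 3) beside its points. The TCL libraries lie above the WT libraries for Hif1a, Pdk1, Pdk3, Hk1, Gapdh and Ankrd37 and below them for Vhl and Aldoc, and of the 8 genes Hif1a, Pdk1 and Pdk3 passed the test.

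None of the enzymes that carry glucose to pyruvate passed in the edgeR test, although more of them lay above 0 than below. Of the 16 genes 0 were called in either direction, 6 were higher and 1 lower at an unadjusted p under 0.05 (11.2% of all tested genes each way), 11 had a positive and 5 a negative log2 fold change, and the median was 0.30. In 6 genes every TCL library exceeded every WT library (37.5%, against 14.1% of all tested genes), and in 1, Aldoc, every TCL library was lower (against 14.2%). The summed level of the 16 genes was 2457, 2526 and 2279 CPM in the WT libraries and 3061, 3231 and 2611 CPM in the TCL libraries, so the sums did not overlap. TCL library 10 was the lowest TCL library for 9 of the 16 genes, and was also the TCL library with the lowest neutrophil and macrophage sums.

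Hexokinases trap glucose in the cell as glucose phosphate, and the fold changes of their isoforms differed in sign. Hk1 had 67.2, 73.4 and 85.0 CPM in WT and 102, 118 and 118 CPM in TCL. These groups were separate, at 75.2 ± 9.02 and 112 ± 9.19 CPM (SD, n = 3 each), but the log2 fold change of 0.58 (SE 0.15) missed the threshold (edgeR adjusted p = 0.0608). Hk2, the isoform best known as hypoxia-inducible, and Hk3, an isoform of myeloid cells, overlapped between the groups, with log2 fold changes of -0.27 (SE 0.18) and -0.26 (SE 0.19). Per kilobase of exon, Hk3 held the largest share of hexokinase RNA, 68.4 ± 2.14% in WT and 61.7 ± 5.79% in TCL (exact permutation p = 0.2, n = 3 each). The share of Hk1 was 13.1 ± 2.53% in WT and 21.4 ± 3.61% in TCL (exact permutation p = 0.1, n = 3 each). A p of 0.1 is the smallest that 3 against 3 allows in this two-sided test, and 21 shares in 9 families were tested. Hk1, at positions 62268855 to 62379908 of chromosome 10, shares 1.64% of its words, with the antisense gene Hk1os.

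Gpi1, the isomerase that follows, was abundant, at 591 ± 20.04 CPM in WT and 586 ± 76.6 CPM in TCL (log2 fold change -0.01, SE 0.15, edgeR adjusted p = 0.976). Phosphofructokinase commits sugar to glycolysis. Of its subunits, Pfkp had 63.4, 50.02 and 68.4 CPM in WT and 66.4, 90.6 and 91.2 CPM in TCL, where library 4 lay within the WT range (log2 fold change 0.45, SE 0.18, edgeR adjusted p = 0.189). Pfkp shares 15.4% of its words with the overlapping gene Pitrm1. Pfkl (0.28, SE 0.15) and Pfkm (0.22, SE 0.19) did not pass on the log2 scale, and Pfkl held 55.2 ± 4.77% of phosphofructokinase RNA per kilobase in WT and 54.1 ± 4.68% in TCL (exact permutation p = 0.8, n = 3 each).

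Aldolase splits the sugar, and the fold changes of its 2 listed genes had opposite signs, neither of which passed. Aldoa, the abundant form, had 576, 629 and 550 CPM in WT and 918, 848 and 685 CPM in TCL (log2 fold change 0.48, SE 0.16, edgeR adjusted p = 0.123). Aldoc, the form named for brain, had 10.8, 11.9 and 12.6 CPM in WT and 6.01, 6.61 and 5.99 CPM in TCL. Neither gene's groups overlapped, and the spread of Aldoc within a group was small, 11.8 ± 0.939 and 6.20 ± 0.352 CPM (SD, n = 3 each). The log2 fold change of Aldoc was -0.92 (SE 0.23, edgeR adjusted p = 0.0509). Without edgeR's robust shrinkage, an alternative added after seeing the data, it passed at an adjusted p of 0.0490. Its share of aldolase RNA per kilobase was 1.77 ± 0.203% in WT and 0.682 ± 0.0972% in TCL (exact permutation p = 0.1, n = 3 each). Aldoc lies at positions 78322968 to 78327781 of chromosome 11 and shares no word with other genes.

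Triose phosphate isomerase, Tpi1, had 159, 120 and 139 CPM in WT and 216, 196 and 179 CPM in TCL, with no overlap (log2 fold change 0.50, SE 0.16, edgeR adjusted p = 0.109). Gapdh, the dehydrogenase widely used as a reference gene, had 33.3, 13.1 and 31.0 CPM in WT and 54.1, 55.8 and 71.5 CPM in TCL. The TCL libraries all exceeded the WT libraries, of which library 7 was the lowest. The means were 25.8 ± 11.0 and 60.5 ± 9.59 CPM (SD, n = 3 each), a log2 fold change of 1.23 (SE 0.31, edgeR adjusted p = 0.0550). Gapdh passed without WT library 7 (log2 fold change 0.91, adjusted p = 0.0460) and, with all libraries, under library size scaling (0.0409), limma-voom (0.0460), limma-trend at pseudocounts of 1 (0.0492) and 5 (0.0430) and DESeq2 (0.00197), given as adjusted p. In the other edgeR fits its adjusted p was 0.0530 to 0.135. Gapdh (chromosome 6, 125161715 to 125166467) stood below Tpi1 and Aldoa, which act just before it. Per kilobase its WT and TCL means were 6.24 ± 2.67 and 14.6 ± 2.32 CPM, while those of Tpi1 were 50.6 ± 7.12 and 71.5 ± 6.77 CPM and those of Aldoa 201 ± 13.7 and 281 ± 41.1 CPM.

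Pgk1, Pgam1, Eno1 and Eno2, the listed genes for the steps from there to phosphoenolpyruvate, were also low and did not pass. Their levels per kilobase in WT were 5.80, 2.98, 0.131 and 0.647 CPM, against 116 ± 13.9 CPM for Pkm, the pyruvate kinase that follows. Their log2 fold changes were 0.12 for Pgk1 (SE 0.25), 0.33 for Pgam1 (SE 0.29) and -0.81 for Eno2 (SE 0.67), with overlapping groups. Eno1 had 26, 0 and 16 reads in the WT libraries and 51, 42 and 54 reads in the TCL libraries, so its log2 fold change of 1.47 (SE 0.91, edgeR adjusted p = 0.367) rests on few reads. Another enolase gene, Eno3, outside this list and named after its values were seen, was not low. Eno3 had 130, 127 and 138 CPM in WT and 236, 87.5 and 169 CPM in TCL, which overlap (log2 fold change 0.32, SE 0.29, edgeR adjusted p = 0.546). Pkm had 600, 635 and 501 CPM in WT and 769, 882 and 668 CPM in TCL, with no overlap (log2 fold change 0.42, SE 0.17, edgeR adjusted p = 0.184).

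Several of these genes have near-identical copies in the mouse genome, and 4 of the low ones share much of their sequence with them. Of the 50-base words in their GENCODE exons, 68.0% of those of Pgk1, 58.4% of Gapdh, 49.5% of Eno1 and 41.5% of Pgam1 also occur in other annotated genes, 213 of them pseudogenes for Gapdh. The shares were 24.5% for Gpi1, 23.7% for Pkm, 6.83% for Tpi1 and 6.57% for Aldoa, which had the higher counts. Genes were told apart by name, so any words that Aldoa shares with another annotated locus of the same name were not counted. The sources used here do not say how reads with several matches were counted, so the levels and changes of Gapdh, Pgk1, Pgam1 and Eno1 are uncertain and the part of the copies in them was not tested. Among the 22 of the 36 genes that share under 10% of their words, 3 were called higher and 0 lower, and the median log2 fold change was 0.25. Among the 14 that share 10% or more, 0 were called and the median was 0.28. In the 14 genes with no shared word at all, 2 were called higher, 8 log2 fold changes were positive and 6 negative, and the median was 0.10. Of all tested genes 2.03% were called higher and 2.61% lower, and 50% had a positive log2 fold change. With so few calls these counts do not set the groups of genes apart.

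**Figure D3:**
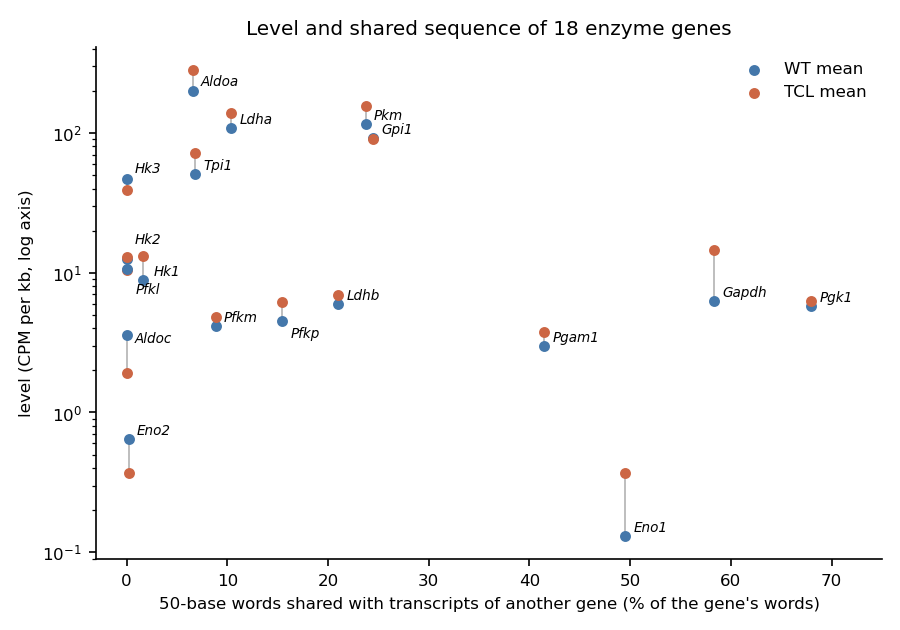
For the 18 glycolytic and lactate dehydrogenase genes, the WT and TCL mean levels in CPM per kilobase (vertical log axis) are plotted as joined points against the percent of a gene's 50-base words that transcripts of another annotated gene hold (horizontal axis). Gapdh, Pgk1, Pgam1 and Eno1 lie to the right, at 41.5% or more, with WT means of at most 6.24 CPM per kilobase, while Eno2 lies low at the left with 0.197% shared.

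Lactate dehydrogenase turns pyruvate into lactate. Ldha, its hypoxia-inducible subunit gene, had 396, 337 and 349 CPM in WT and 487, 521 and 378 CPM in TCL. TCL library 10 lay below WT library 3, so the groups overlapped (log2 fold change 0.36, SE 0.17, edgeR adjusted p = 0.241). Ldhb had 9.31 ± 1.35 and 10.9 ± 2.72 CPM (SD, n = 3 each), a log2 fold change of 0.24 (SE 0.26). The balance between the subunits differed by less than the spread between WT libraries, with Ldha at 94.8 ± 0.766% of their RNA per kilobase in WT and 95.3 ± 0.441% in TCL (exact permutation p = 0.6, n = 3 each).

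Of the 4 flux regulators the 2 pyruvate dehydrogenase kinase genes rose, and the 2 genes that set the allosteric activator of phosphofructokinase did not pass. Pdk3, at positions 93764607 to 93832201 of chromosome X, had 37.5, 36.4 and 29.2 CPM in WT and 80.2, 55.2 and 68.2 CPM in TCL. All TCL libraries exceeded all WT libraries. The means were 34.4 ± 4.50 and 67.9 ± 12.5 CPM (SD, n = 3 each), a log2 fold change of 0.98 (SE 0.18, edgeR adjusted p = 0.0187). Leaving out WT library 3, WT library 9 or TCL library 4 ended the call, at adjusted p-values of 0.0566, 0.0659 and 0.0776, and leaving out any other library kept it.

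Pdk1, at positions 71873224 to 71903858 of chromosome 2, had 26.2, 23.7 and 23.2 CPM in WT and 37.2, 40.8 and 36.2 CPM in TCL. Its groups were tight and apart, at 24.4 ± 1.64 and 38.1 ± 2.45 CPM (SD, n = 3 each), and the log2 fold change was 0.64 (SE 0.15, edgeR adjusted p = 0.0470). The call was lost whichever library was left out. The adjusted p was then 0.111, 0.117 and 0.126 when WT libraries 3, 7 and 9 were left out in turn, and 0.131, 0.0806 and 0.0767 for TCL libraries 4, 8 and 10. With all libraries it was also lost under the 5 CPM filter (adjusted p = 0.0543) and with limma-voom (adjusted p = 0.0545). Neither kinase gene shares a 50-base word with other genes. Per kilobase Pdk3 made up 81.0 ± 1.58% of the RNA of the 2 genes in WT and 84.1 ± 3.28% in TCL (exact permutation p = 0.3, n = 3 each).

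Pfkfb3 and Pfkfb4 encode bifunctional enzymes that make and remove that activator. Pfkfb3 had 116, 93.55 and 124 CPM in WT and 146, 96.6 and 170 CPM in TCL, and TCL library 8 lay within the WT range (log2 fold change 0.30, SE 0.22, edgeR adjusted p = 0.433). Pfkfb4 had a log2 fold change of -0.13 (SE 0.21). TCL library 8 was the lowest TCL library for Pfkfb3, Pfkfb4 and Pdk3, and it also had the lowest Cd74 and H2-Ab1 levels and the highest erythroid sum. It was the highest TCL library for Pdk1, and over the 36 genes it was the highest for 15 and the lowest for 10. Within each library the share of Pfkfb3 in the RNA of the pair was 32.8, 35.3 and 33.7% in WT and 37.9, 39.3 and 44.8% in TCL per kilobase, with no overlap (exact permutation p = 0.1, n = 3 each).

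**Figure D4:**
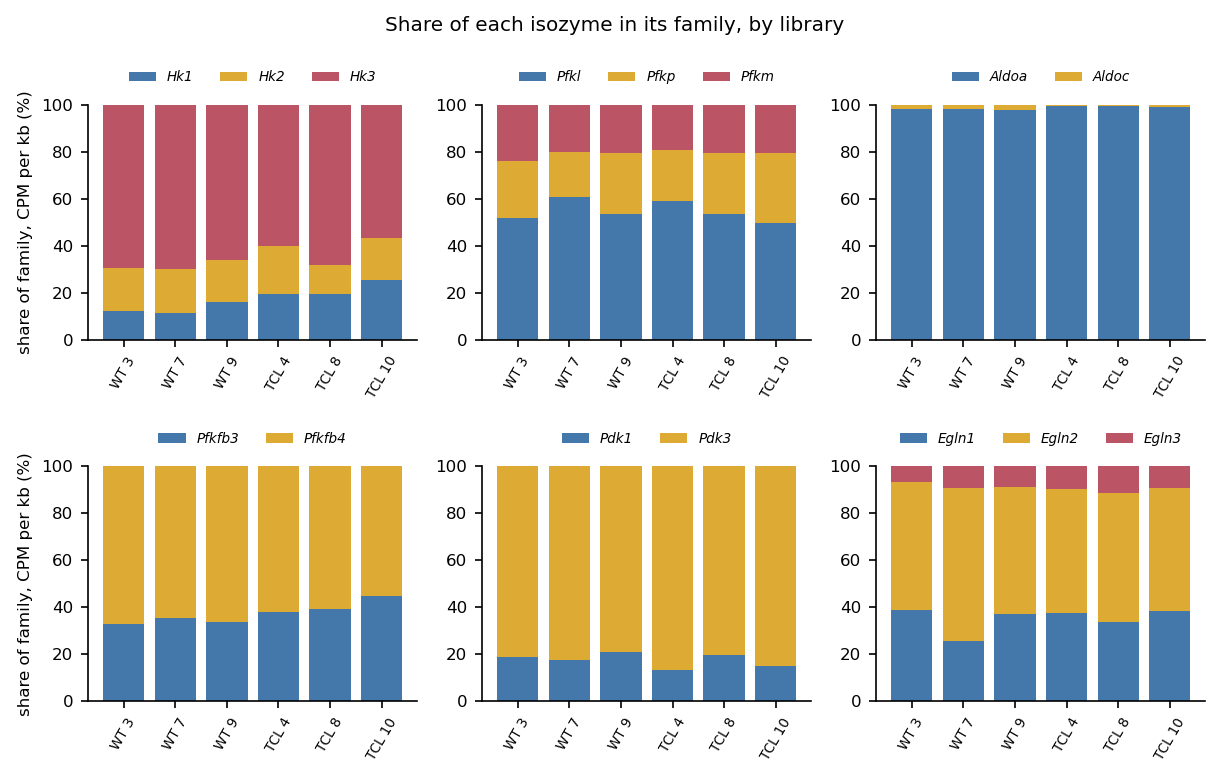
Stacked bars give the percent of a family's CPM per kilobase (vertical axes) taken by each of its genes in each of the 6 libraries, for hexokinases, phosphofructokinases, aldolases, the PFKFB enzymes, pyruvate dehydrogenase kinases and EGLN hydroxylases. The shares of Hk1 and Pfkfb3 are larger and that of Aldoc is smaller in every TCL library than in any WT library.

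Of the 8 other hypoxia-responsive genes 0 passed, 6 had a positive and 2 a negative log2 fold change, and the median was 0.13. Ankrd37, an ankyrin repeat gene known as a HIF target (chromosome 8, 45996902 to 46005707), had 4.56, 2.51 and 1.94 CPM in WT and 13.3, 8.65 and 5.50 CPM in TCL. The groups did not overlap, but the gene was low, with 41 to 83 reads in a WT library and 147 to 306 in a TCL library. The means were 3.003 ± 1.38 and 9.16 ± 3.93 CPM (SD, n = 3 each), and the log2 fold change of 1.61 (SE 0.43) missed the threshold (edgeR adjusted p = 0.0688). Its adjusted p was 0.0496 without TCL library 10, 0.0458 with library size scaling, 0.0356 without a filter and 0.00532 with DESeq2. It shares 11.4% of its words, mainly with the neighbouring Lrp2bp.

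Ero1l, an oxidase that serves disulphide formation in the endoplasmic reticulum, had 18.01, 16.8 and 18.9 CPM in WT and 21.3, 26.8 and 27.8 CPM in TCL, with no overlap (log2 fold change 0.50, SE 0.18, edgeR adjusted p = 0.154). The mitophagy receptor genes Bnip3 (0.06, SE 0.24) and Bnip3l (0.14, SE 0.14) and the collagen hydroxylase gene P4ha1 (0.13, SE 0.16) had log2 fold changes near 0, as did Ndrg1 (-0.05, SE 0.23) and the mitochondrial Higd1a (-0.04, SE 0.24). Ddit4, a stress-induced inhibitor of mTOR signalling, varied within both groups, with 64.2, 16.25 and 23.9 CPM in WT and 16.4, 61.2 and 41.1 CPM in TCL. Bnip3, Bnip3l and Higd1a share 59.1%, 24.4% and 24.4% of their words with other annotated genes, so their levels are uncertain. The highest Ddit4 library was 3.95 times its lowest in WT and 3.74 times in TCL, and the log2 fold change of Ddit4 was 0.19 (SE 0.54, edgeR adjusted p = 0.865).

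Beyond the 36 genes, 64 further genes of HIF signalling and of glucose and pyruvate handling were listed, of which 55 were tested, 2 rose and 2 fell. That is 3.64% in each direction, near the 2.03% higher and 2.61% lower among all tested genes, so the count does not set this list apart. The median log2 fold change of the 55 was 0.09. Of 21 tested other hypoxia-inducible genes 2 rose and 0 fell. Slc2a1, the glucose transporter GLUT1, had 26.5, 33.3 and 22.7 CPM in WT and 54.3, 56.4 and 42.1 CPM in TCL (log2 fold change 0.89, SE 0.19, edgeR adjusted p = 0.0353). The adjusted p of Slc2a1 reached 0.121 in the fits with a library left out, and leaving out WT library 3, WT library 9 or TCL library 4 ended the call. Bhlhe40, a transcriptional repressor, had 66.4, 55.7 and 81.5 CPM in WT and 283, 93.2 and 223 CPM in TCL (log2 fold change 1.56, SE 0.35, edgeR adjusted p = 0.0386), and of the fits with a library left out only that without TCL library 8 called it. Next in order was Slc16a3, a lactate exporter, with a log2 fold change of 0.68 (SE 0.18, edgeR adjusted p = 0.0615).

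Of 9 tested HIF subunit and turnover genes Epas1 fell and 8 did not pass. Epas1, which encodes the alpha subunit HIF2A, had 7.74, 23.8 and 9.73 CPM in WT and 1.04, 0.816 and 1.76 CPM in TCL (log2 fold change -3.50, SE 0.51, edgeR adjusted p = 0.00647). It was highest in WT library 7, as was the sum of stromal markers, at 86.7, 313 and 174 CPM in the WT libraries and 6.44, 12.9 and 11.4 CPM in the TCL libraries. Epas1 was called in each fit with a library left out, and the part of stromal RNA in its level was not tested. The elongin gene Tceb2 (-0.62, SE 0.22) and the ligase subunit gene Rbx1 (-0.52, SE 0.25) came next by p.

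Of 8 tested other glycolytic isozymes 0 rose. Tigar, a phosphatase that lowers the activator of phosphofructokinase, and Pklr, the pyruvate kinase of liver and red cells, did not pass, at 0.73 (SE 0.22) and 1.196 (SE 0.37) on the log2 scale. Pklr had 8.02, 6.62 and 5.60 CPM in WT and 10.7, 25.3 and 10.3 CPM in TCL. Its highest level was in TCL library 8, as was the highest erythroid sum, and the part of erythroid RNA in Pklr was not tested. Of 10 genes of pyruvate entry into mitochondria 0 were called, with Pdha1 at 0.50 (SE 0.15, edgeR adjusted p = 0.0879) and Pdhb, the other subunit of the enzyme that PDK1 and PDK3 inactivate, at -0.44 (SE 0.18, edgeR adjusted p = 0.185). Of 7 pentose phosphate genes 0 were called, with G6pdx at 0.35 (SE 0.14) and Pgls at -0.50 (SE 0.21).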

How the data were processed

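Poly(A) RNA of dendritic cells sorted from bone marrow was sequenced in 3 WT and 3 TCL samples. Tools named in the submitters' processing notes are cutadapt, STAR 2.4.2a, HTSeq and DESeq2, with the build mm10. Not given in the sources used here are their order, the annotation, the strand setting and the treatment of multiply matching reads. The deposited signal is a normalized count per gene and library, per the file headers, and 100% of its non-zero entries were whole multiples of a library's smallest step within 0.001. The values were turned back into whole reads with that step, whose reciprocal equals the median-ratio factor recomputed from these reads. The log2 fold change, p-value and adjusted p-value that the authors deposited are printed only as theirs.

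Reads were tested with edgeR 4.0.16 in R 4.3.3 (filterByExpr, TMM, quasi-likelihood fit with robust shrinkage), with Benjamini-Hochberg adjustment over all 13010 tested genes and a threshold of 0.05. Standard errors are the absolute log2 fold change over the square root of F, and CPM use effective library sizes. Whole reads having been recovered, tests on the log scale with limma 3.58.1 served as alternatives, with DESeq2 1.42.0, other scaling, filters and thresholds, and each library left out. Shares within isozyme families, from CPM per kilobase of GENCODE M21 exons, were compared with exact permutation tests. Tests were checked on simulated data.

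The 36 genes and all lists were chosen with earlier results of these data known, so no p was adjusted over a list alone. Named genes are the 36, with full values where a gene passed at an adjusted or unadjusted p of 0.05 or its groups did not overlap, and from each other list those called plus the 2 with the smallest p; a few that the rule names are left out here. Robust shrinkage was chosen after seeing the data. GENCODE positions are on GRCm38, the assembly mm10 stands for. Depth was 17158819 to 25674314 reads per library. PCR reads are not independent molecules. Since nothing ties samples to separate mice, the spread that the p-values rest on is that between these samples and may be technical in part.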

Additional observations from a re-analysis of the deposited data

How the results depend on the processing

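Of the 36 genes' log2 fold changes under 15 alternatives, 486 values kept direction and side of the threshold, 17 passed where the reported value had not, 16 no longer passed and 19 changed sign. The count of genes called higher, 3, was 5 with library size only and with limma-trend at a pseudocount of 5, 8 with DESeq2, 6 at a threshold of 0.10, and 0 to 2 with a library left out. The count called lower, 0, was 2 with DESeq2, 1 without robust shrinkage and 2 at 0.10. All genes called, 604, became 1453 with DESeq2, 1240 at 0.10 and 246 to 904 with a library left out. The median of 0.26 was 0.35 with library size only, a shift above the spread of the library medians (0.0665), and 0.20 to 0.31 with a library left out. With library size only the median over all tested genes also moved, from 0.00 to 0.0885. Of the 55 other pathway genes 2 rose. That count was 7 with DESeq2 and at 0.10, 1 with limma-voom and with limma-trend at a pseudocount of 1, and 0 to 3 with a library left out. The count that fell, 2, was 1 with a 5 CPM filter, which leaves out Eno1 and Eno2 among the 36 genes. Sign changes were met in 8 genes with log2 fold changes near 0. Library size only gave 0.0809 for Gpi1, 0.0490 for Ndrg1 and 0.0458 for Higd1a, and no filter gave 0.00040 for Gpi1. With a library left out, the values ran from -0.0812 (WT library 7) to 0.241 for Egln1, from -0.106 to 0.0970 (TCL library 10) for Gpi1, from -0.278 to 0.0394 (TCL library 8) for Pfkfb4, from -0.0184 (TCL library 4) to 0.358 for Pgk1, and from -0.0304 (WT library 7) to 0.230 for Bnip3. They ran from -0.341 to 0.0963 (WT library 7) for Ndrg1, from -0.188 to 0.153 (TCL library 10) for Higd1a, and from -0.278 (TCL library 8) to 0.982 for Ddit4. The cause was not tested. No paired analysis was possible because the table's columns carry none of the labels' replicate numbers. Depth limits Eno1, Eno2 and Ankrd37, the genes with the fewest reads.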

Other observations

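Bpgm, which encodes the enzyme that makes the oxygen-affinity regulator of red cells, had 22.6, 22.3 and 23.2 CPM in WT libraries 3, 7 and 9 and 23.9, 75.8 and 23.9 CPM in TCL libraries 4, 8 and 10 (named after its values were seen). TCL library 8 also had the highest erythroid marker sum, 296 CPM, against 71.0 to 84.0 CPM in the other TCL libraries, and the part of erythroid RNA in Bpgm was not tested. Vegfa, a HIF target that promotes vessel growth and was also named after its values were seen, had 8.51, 14.2 and 13.2 CPM in WT and 38.3, 14.4 and 18.05 CPM in TCL, without overlap (log2 fold change 0.98, SE 0.37, edgeR adjusted p = 0.162).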
